A study of Sus scrofa with 2 samples.

Results

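The HOX genes and their TALE cofactors are homeobox transcription factor genes, described here in PSI, a smooth muscle clone derived from the ileum, the end section of the pig's small intestine. Members were every gene of the table whose identifier was paired with a symbol of the form HOXA to HOXD plus a number, PBX, MEIS, PKNOX or TGIF plus a digit. There were 43 of them, 34 HOX genes and 9 TALE genes, among 14857 identifiers with a symbol and 25880 identifiers in all. The choice used names alone and no measured value. The data set holds 2 RNA-seq libraries of the clone, grown in DMEM with 10% fetal bovine serum, as 1 group with no second condition. No genetic change or drug treatment is given in the labels. The line is 1 clone, and the labels name no separate cultures for the libraries, so each SD is the spread of these libraries and may be purely technical. Levels are in FPKM, reads corrected for gene length and library total. Genes of different length can thus be compared only as far as the lengths used for them hold, a limit described below.

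HOX proteins bind DNA through the homeodomain and give cells their place along the body axis. Their genes lie in clusters named A to D, and genes at the same place in different clusters, called paralogs, share a number from 1 to 13. In vertebrate embryos, low-numbered genes become active first and furthest forward, high-numbered genes later and nearer the tail, and connective and muscle tissue of adults keeps much of that pattern. HOX proteins alone bind DNA with little selectivity. PBX and MEIS proteins, members of the TALE homeobox class, bind beside them and sharpen the choice of site, PKNOX proteins are relatives of MEIS that also pair with PBX, and TGIF proteins are TALE repressors that act on SMAD and retinoid target genes.

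Mammals have 39 HOX genes, of which HOXA4, HOXA6, HOXA13, HOXB9 and HOXD13 matched no identifier by symbol and were not analysed here. The same holds for the TALE gene MEIS3. RefSeq's annotation of Sscrofa11.1 places the HOXA genes on chromosome 18 from 45373340 to 45480306 and the HOXB genes on chromosome 12 from 24784953 to 24950661. It places the HOXC genes on chromosome 5 from 19151096 to 19268267 and the HOXD genes on chromosome 15 from 81893997 to 81990026. HOXB4 and HOXD4 had no RefSeq entry under that symbol. All members with an entry are protein-coding genes. Identifiers and coordinates were joined by symbol, and the pairing was not checked by position.

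The library totals behind the values were 35176565 and 32217729 reads or read pairs, so 1 FPKM in a gene model of 2000 bp stood for about 70.4 and 64.4 reads. As a check of the labelled cell type, the smooth muscle genes ACTA2 (693 ± 11.8 FPKM, SD, n = 2), ACTG2 (479 ± 15.0) and CNN1 (254 ± 1.02) were abundant. Of 8 smooth muscle markers 7 reached 1 FPKM in both libraries, beside 61.5% of all genes with a symbol. The exception was MYH11, a smooth muscle myosin gene, with 0.491 ± 0.0433. Of the markers above that level, TAGLN had only 5.46 ± 0.175 FPKM and DES 2.90 ± 0.231, where the median of all genes with a symbol was 3.90. Of 10 markers of epithelium, leukocytes, endothelium, neurons and glia, none reached 1 FPKM, and the highest was SOX10 at 0.139 ± 0.00229. In bulk RNA, fewer cells expressing a gene and less RNA per cell cannot be told apart.

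The clone expressed genes of every HOX cluster, mostly at low levels. Paralog groups 6 to 9 held 55.9% and 53.8% of all HOX FPKM in replicates 1 and 2. In HOXA and HOXB, however, groups 1 to 5 held more than groups 6 to 9. Genes with at least 1 FPKM in each library were called detected. By this rule 19 of 34 HOX genes were detected (55.9%), beside 61.5% of all genes with a symbol and 40.9% of all identifiers, so the share of detected HOX genes was not above that of genes with a symbol. No HOX gene reached 10 FPKM, and 8 had a mean of at least 5. Another 10 lay between 0 and the detection level, and HOXB13, HOXC11, HOXC12, HOXC13 and HOXD12 were listed at 0 in both libraries. The median HOX gene stood at 1.29 on the log2(FPKM + 1) scale, where the median of all genes with a symbol was 2.29.

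**Figure D1:**
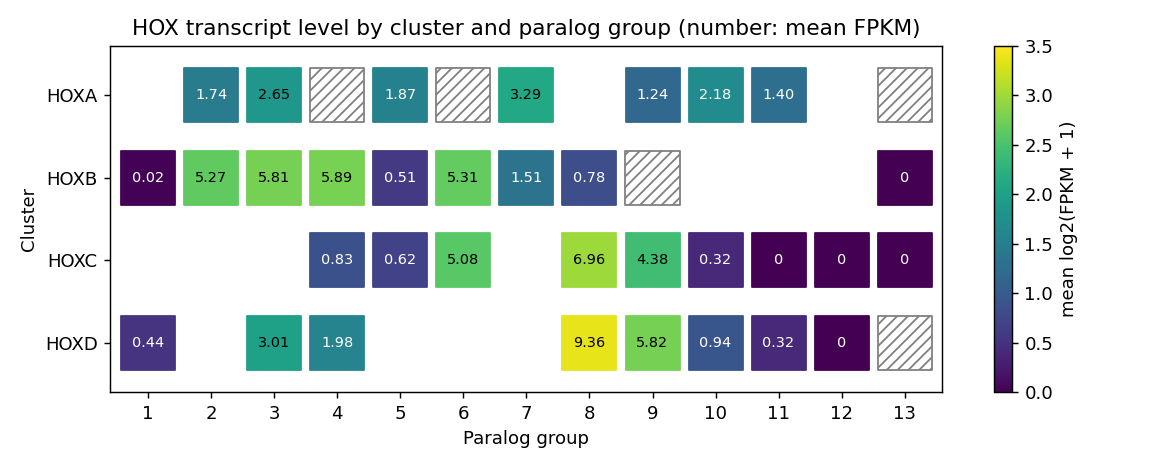
Mean level of the HOX genes reported here over 2 libraries, with clusters in rows and paralog groups in columns. Colour gives log2(FPKM + 1), the number in each square is the mean in FPKM, and hatched squares are genes without an identifier in the table. The bright squares lie in HOXB2 to HOXB4, HOXB6, HOXC6 to HOXC9 and HOXD8 to HOXD9, and every measured gene of groups 12 and 13 is at 0.

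HOXA was expressed evenly and at low levels. Of its 8 measured genes, 7 were detected, all between 1.24 and 3.29 FPKM. HOXA7 was the highest, with 3.29 FPKM in replicate 1 and 3.28 in replicate 2. HOXA3, which in mice is needed for the thymus and parathyroid, had 2.60 and 2.70. The libraries hardly differed at these genes, which had between 307 and 390 reads in each. HOXA5, which in mice acts in lung and gut mesenchyme, had 1.93 and 1.80 FPKM. HOXA2, a regulator of the pharyngeal arches, had 1.52 and 1.96. HOXA9, known from blood progenitors and leukaemia, had 1.23 and 1.25. These genes lay close to the detection level without falling below it in either library. HOXA was the only cluster with detected genes among the measured members of groups 10 to 13. HOXA10, which in mice acts in the uterus and lumbar spine, had 2.14 and 2.23 FPKM from 83 and 79 reads. HOXA11, which acts in uterus, kidney and forearm of mice, had 1.62 and 1.17 from 147 and 97 reads.

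The 9 measured HOXB genes summed to 25.1 ± 0.445 FPKM, the largest sum of a cluster, and 5 of them were detected. Over members that overlap no other RefSeq gene, HOXB had 7.57 FPKM and HOXD came first with 12.8. These sums leave out HOXB4 (mean 5.89 FPKM) and HOXD4 (1.98), whose overlap is unknown because they had no RefSeq entry. HOXB4, known for its action in blood stem cells, had 6.18 and 5.60 FPKM in replicates 1 and 2. HOXB3 had 5.67 and 5.96, and its range lay inside that of HOXB4, so their order was not settled by these libraries. HOXB6 had 5.61 and 4.997 FPKM, and HOXB2, a hindbrain gene in embryos, 5.15 and 5.39. These ranges overlapped too, so HOXB2 and HOXB6 could not be ordered. HOXB7 was lower, with 1.43 and 1.60 FPKM, and HOXB8 was just under the detection level, with 0.817 and 0.737. HOXB5, which in mice acts in neural crest cells of the gut wall, broke the run of high genes. It had 0.518 and 0.505 FPKM from 28 and 25 reads, while the means of HOXB4 and HOXB6 on either side were 11.5-fold and 10.4-fold higher. The RefSeq models of HOXB5 and HOXB6 overlap the same unnamed gene, and the part of such overlaps in these values was not tested. HOXB1 had 1 read in replicate 1 and none in replicate 2. HOXB13, a prostate and tail-end gene, was listed at 0.

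HOXC was expressed as a block bounded on both sides. HOXC8, which with its neighbours assigns motor neurons of the spinal cord to muscle groups, was the second highest HOX gene, with 6.76 FPKM in replicate 1 and 7.16 in replicate 2. HOXC6 had 5.74 and 4.43, and HOXC9 had 4.33 and 4.44. Only these 3 of 9 HOXC genes were detected, and the ranges of HOXC6 and HOXC9 overlapped at their edge. HOXC5, next to HOXC6, had 0.706 and 0.539 FPKM, 8.13-fold and 8.21-fold below it in replicates 1 and 2. HOXC4 was similarly low, with 0.778 and 0.883. On the other side HOXC10, a lumbar patterning gene, had 0.325 and 0.308 FPKM from 23 and 20 reads, and HOXC9 stood 13.3-fold and 14.4-fold above it. Beyond HOXC10 no reads were listed. HOXC13, best known from hair follicles, was at 0 together with HOXC11 and HOXC12. The 3 detected genes each overlap an unnamed RefSeq gene and HOXC5 overlaps MIR615, while HOXC4 and HOXC10 overlap none. Gene lengths recovered from the values were 708 bp for HOXC6 and 657 bp for HOXC9, against 2014 bp for HOXC10. The part of overlaps and gene lengths in the edges of this block was not tested.

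HOXD contained the highest HOX gene of the clone. HOXD8 had 9.61 and 9.10 FPKM, from 1316 and 1141 reads, and 65.4% of genes with a symbol had a lower mean. HOXD9, which acts with HOXA9 in limb and spine of mice, had 6.27 and 5.37. HOXD3 had 3.01 and 3.02 FPKM, and HOXD4 had 1.91 and 2.05. These 4 genes were detected, and HOXD8 lay above every other HOX gene in both libraries. HOXD10, a lumbar and limb gene, had 0.646 and 1.23 FPKM from 28 and 49 reads, so it reached the detection level in replicate 2 alone. HOXD9 stood 9.71-fold above it in replicate 1 and 4.35-fold in replicate 2. HOXD11, which acts with HOXA11 in the forearm and kidney of mice, had 0.262 and 0.381 FPKM from 3 and 4 reads, and HOXD12 was listed at 0. HOXD1, at the low-numbered end, had 0.437 and 0.443 FPKM from 42 and 39 reads. The detected HOXD genes thus ran from HOXD3 to HOXD9, with the level falling on either side.

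**Figure D2:**
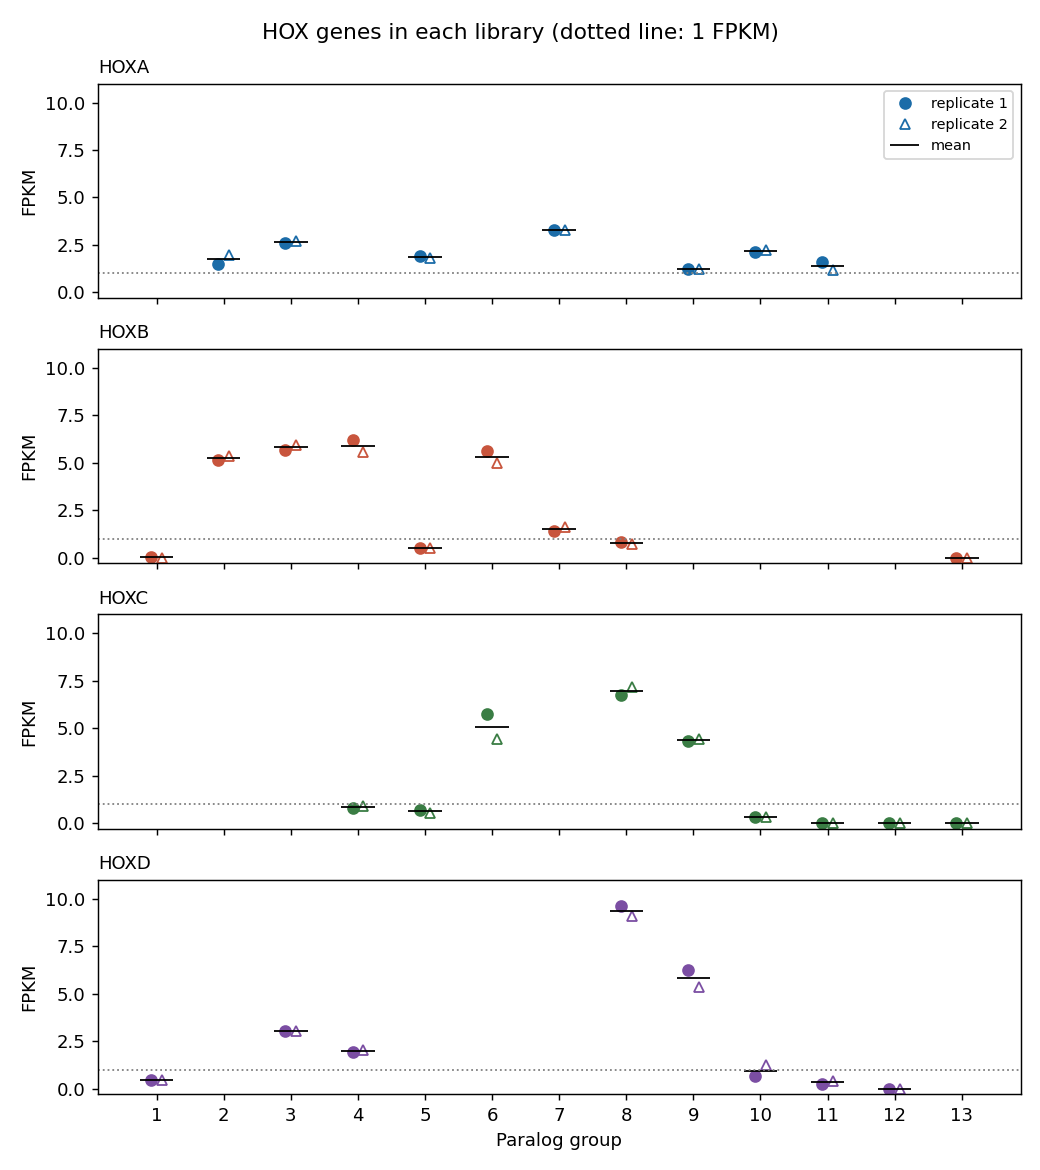
FPKM of the HOX genes reported here by paralog group, one panel per cluster, with filled circles for replicate 1, open triangles for replicate 2 and a line at their mean. HOXD8, HOXC8, HOXB4, HOXB3 and HOXD9 stand highest, and the libraries are furthest apart in absolute terms at HOXC6 (5.74 and 4.43 FPKM).

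The clusters were ordered differently by different summaries. Detected genes made up 87.5% of the measured genes in HOXA, 55.6% in HOXB, 33.3% in HOXC and 50% in HOXD. The share over all genes with a symbol was 61.5%. By summed level HOXB (25.1 ± 0.445 FPKM, SD, n = 2) was followed by HOXD (21.9 ± 0.393), HOXC (18.2 ± 0.619) and HOXA (14.6 ± 0.108). The summed values of any cluster pair did not overlap between libraries. HOXB contributed 31.5% of all HOX FPKM in both libraries, HOXD 27.5% and 27.4%, HOXC 23.1% and 22.6%, and HOXA 17.9% and 18.6% in replicates 1 and 2. By the median gene on the log2(FPKM + 1) scale, HOXA came first at 1.48, ahead of HOXB at 1.33, HOXD at 1.26 and HOXC at 0.70. HOXA thus had the smallest sum and the highest median over all measured members. Neither place was stable: the mean over members put HOXB first (1.51, against 1.41 for HOXA), members of at least 0.1 FPKM put the HOXA median last, and over members that overlap no other gene HOXC had the smallest sum (1.15 FPKM, against 3.32 for HOXA) and HOXD the highest median (1.27, against 1.25). The 5 highest HOX genes (HOXD8, HOXC8, HOXB4, HOXD9 and HOXB3) held 42.8% and 42.1% of all HOX FPKM. HOXB4 and HOXD4, without a RefSeq entry, are missing from the values over members that overlap no other gene. Clusters differ in which genes they contain and in which were measured, so these sums compare the measured genes alone.

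Read across paralog groups, the largest summed level lay in the middle, as it did within HOXC and HOXD but not within HOXA and HOXB. Groups 6 to 9 held 45.1 FPKM in replicate 1 and 42.4 in replicate 2. Of their 10 genes 9 were detected (90%), beside 61.5% of all genes with a symbol. Groups 1 to 5 held 30.6 and 31.1 FPKM, with 8 of 14 detected (57.1%), near that share. Groups 10 to 13 held 4.996 and 5.32 FPKM, with 2 of 10 detected (20%), both of them HOXA genes. The blocks did not overlap between libraries, and the last of them made up 6.19% and 6.75% of HOX FPKM. Of the members with a RefSeq entry, 15 HOX genes overlap another annotated gene. Over the other 17 alone the first 2 blocks were nearly equal, with 11.5 FPKM in groups 1 to 5 and 11.6 in groups 6 to 9. Groups 10 to 13 had 1.71. The blocks kept 7, 3 and 7 genes, and HOXD8 alone had 9.36 FPKM. HOXB4 (5.89) and HOXD4 (1.98), both of groups 1 to 5, had no RefSeq entry and were left out. The near equality thus depends on the genes kept.

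The blocks came from different clusters. HOXB supplied the largest part of groups 1 to 5, 17.5 ± 0.0726 FPKM, against 6.45 ± 0.367 from HOXA, 5.43 ± 0.108 from HOXD and 1.45 ± 0.0433 from HOXC. In groups 6 to 9 the main contributions were those of HOXC (16.4 ± 0.564) and HOXD (15.2 ± 1.001), which overlapped no value of HOXB (7.60 ± 0.372) or HOXA (4.53 ± 0.00287). In groups 10 to 13 HOXA had 3.58 ± 0.261 and HOXC 0.316 ± 0.0116, while HOXD had 0.907 in replicate 1 and 1.61 in replicate 2.

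**Figure D3:**
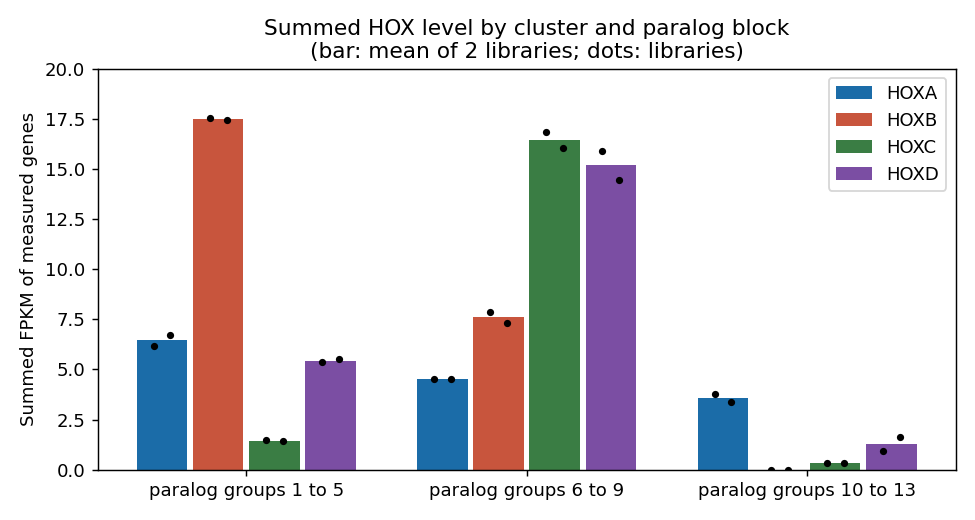
Summed FPKM of the measured genes of each HOX cluster in paralog groups 1 to 5, 6 to 9 and 10 to 13, with bars for the mean of 2 libraries and dots for the libraries. HOXB leads in groups 1 to 5 (17.5), HOXC and HOXD lead in groups 6 to 9 (16.4 and 15.2) and HOXA leads in groups 10 to 13 (3.58).

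Paralogs, which encode the most similar proteins, often differed in level. Of 23 paralog pairs with reads in both libraries for both genes, 14 were over 2-fold apart in each library and 4 were over 5-fold apart. Group 8 had the widest gap. HOXD8 was 11.8-fold and 12.4-fold above HOXB8 in replicates 1 and 2, and HOXC8 was 8.27-fold and 9.72-fold above it. In group 4, HOXB4 was 7.95-fold and 6.34-fold above HOXC4. In group 10, HOXA10 was 6.60-fold and 7.22-fold above HOXC10. The closest pair was HOXB6 and HOXC6, whose order changed between the libraries. Group 3 was expressed in all of its clusters, with HOXA3, HOXB3 and HOXD3 each detected, and the measured genes of group 9, HOXA9, HOXC9 and HOXD9, were detected too. Groups 2, 6 and 7 were likewise detected in both of their measured genes. No measured gene was detected in groups 12 and 13. Neighbours in a cluster differed as widely as paralogs: of 24 neighbouring measured pairs with reads, 11 were over 2-fold apart in both libraries and 6 over 5-fold. Steps over 5-fold lay on both sides of HOXB5, between HOXC5 and HOXC6, between HOXC9 and HOXC10, and between HOXD1 and HOXD3.

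The deposited FPKM depends on the gene model used, and the HOX models varied. The gene lengths recovered from the values ran from 326 bp to 6108 bp (HOXA5) in HOX genes. The lengths of HOXA5, HOXA7 (2908 bp) and HOXD1 (2735 bp) exceed their whole RefSeq spans, for HOXA5 from 45429691 to 45432723. Their levels may thus cover sequence beyond the RefSeq gene, which was not tested. Of the 9 HOX genes with a recovered length under 1000 bp, 8 had a length divisible by 3, beside 12 of the 29 longer members. HOXC9 with 657 bp, HOXC6 with 708 bp and HOXB6 with 795 bp were among them. A recovered length is the shortest that matches the values, so the true length can be a multiple of it, which may apply to HOXD11 at 326 bp with 3 and 4 reads. The part of short models in the order of levels was not tested.

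By their median, the measured TALE genes stood higher than the HOX genes. Of 9 measured TALE genes, 7 were detected (77.8%), beside 61.5% of all genes with a symbol, and 5 had a mean above 10 FPKM, a level that no HOX gene reached. The median TALE gene stood at 3.53 on the log2(FPKM + 1) scale. The 9 TALE genes summed to 87.4 FPKM in replicate 1 and 86.8 in replicate 2. That was 1.08 and 1.10 times the summed level of the 34 HOX genes. The TGIF genes, described above as repressors and not as HOX partners, held 33.1 ± 0.0173 FPKM of this sum. The PBX genes held 30.2 ± 0.138, the MEIS genes 11.4 ± 0.0745 and the PKNOX genes 12.4 ± 0.228. Without the TGIF genes the sum fell below that of the HOX genes in both libraries.

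PBX2 was the main measured PBX gene. It had 20.01 and 20.8 FPKM, from 1536 and 1459 reads. PBX4 had 5.87 and 5.30, and PBX3 had 4.37 and 4.001. All of them were detected and their ranges did not overlap. The proteins are partners of HOX proteins of most paralog groups. PBXIP1, which encodes a protein that binds PBX proteins, had 26.5 ± 0.823 FPKM. The summed level of PBX2 to PBX4 was 30.2 ± 0.138 FPKM.

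In both the MEIS and PKNOX families 1 gene was high and the other under the detection level. MEIS1, which carries PBX into the nucleus and binds DNA with it, had 10.7 and 10.49 FPKM, from 2116 and 1907 reads. MEIS2 had 0.829 and 0.894, and MEIS1 stood 12.9-fold and 11.7-fold above it. PKNOX1 had 11.9 and 11.7 FPKM, and PKNOX2 had 0.722 and 0.537, so that PKNOX1 stood 16.4-fold and 21.8-fold above it. MEIS1 and PKNOX1 were close in level but did not overlap. Both TGIF genes were detected. TGIF1, a repressor of SMAD-driven transcription, had 22.1 and 21.5 FPKM and was the highest of all 43 members, and TGIF2 had 10.9 and 11.5. None of the 8 neighbouring pairs in the order of TALE levels overlapped between libraries, whereas 14 of the 28 neighbouring pairs among HOX genes above 0 did.

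**Figure D4:**
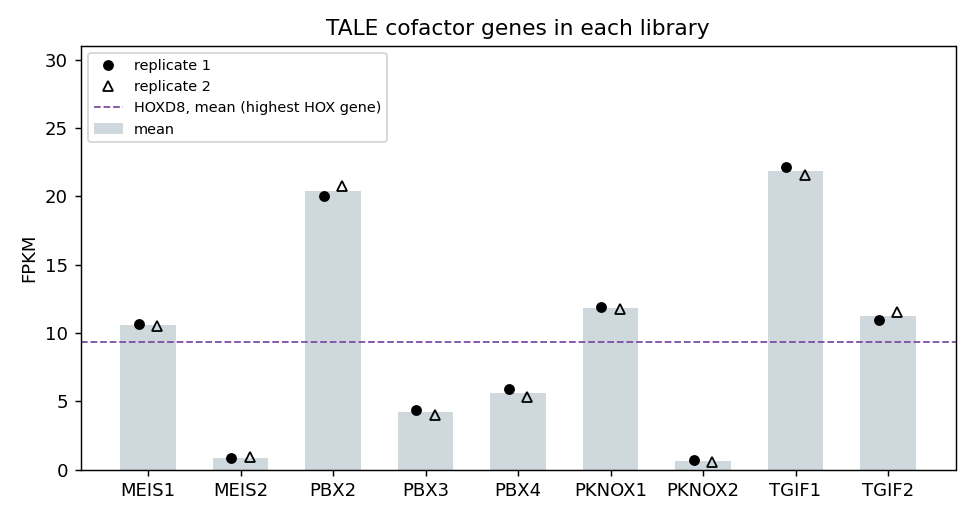
FPKM of the 9 measured TALE genes, with bars for the mean, circles for replicate 1 and triangles for replicate 2, and a dashed line at the mean of HOXD8, the highest HOX gene. TGIF1, PBX2, PKNOX1, TGIF2 and MEIS1 lie above that line, and MEIS2 and PKNOX2 lie under 1 FPKM.

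Genes known to control HOX clusters were summarised from lists. Polycomb proteins, which keep HOX genes silent through histone marks, were expressed throughout, with all 22 measured genes detected, beside 61.5% of genes with a symbol. The highest was PHC2 at 85.3 ± 0.311 FPKM, followed by PCGF3 (28.0 ± 0.655) and RING1 (27.9 ± 0.743). EZH2, the main H3K27 methyltransferase, had 19.2 ± 0.572 and its relative EZH1 3.43 ± 0.0572. The lowest were the chromobox genes CBX2 (2.31 ± 0.166) and CBX8 (1.11 ± 0.0411). The opposing trithorax proteins and H3K27 demethylases were detected in 11 of 11 measured genes. DPY30, a core subunit of the methyltransferase complexes, led with 43.6 ± 1.66, ahead of WDR5 (15.2 ± 0.548) and the demethylase gene KDM6B (13.8 ± 0.00655). KMT2A, the trithorax homologue best known for maintaining HOX expression, had 11.9 ± 0.153. CTCF, the insulator protein that separates active from silent parts of HOX clusters, had 17.5 ± 0.218, and all 7 insulator and cohesin genes were detected. Genes of this kind are active in most dividing cells.

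Retinoic acid, which switches on low-numbered HOX genes in embryos, was represented unevenly, with 9 of 18 pathway genes detected, beside 61.5% of genes with a symbol. ALDH1A3, an enzyme that makes retinoic acid, had 75.2 ± 0.592 FPKM, and CRABP2, which carries it to the nucleus, 60.2 ± 1.60. The receptor gene RARA had 23.6 ± 0.153. The other synthesis enzymes were low, with ALDH1A2 at 0.224 ± 0.0139 and ALDH1A1 at 0.00921 ± 0.00383. Among the CYP26 enzymes that degrade retinoic acid, CYP26B1 had 0.567 ± 0.00959, CYP26C1 had 2 reads in replicate 1 and none in replicate 2, and CYP26A1 was listed at 0, as were RXRG and CRABP1.

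The measured caudal genes and other HOX-like homeobox genes were nearly silent, unlike 3 further TALE-class genes. CDX2 and CDX4, caudal genes that act upstream of HOX genes in embryos, were listed at 0 in both libraries, as were GSX1 and GSX2. None of 7 other genes of the HOX-like class was detected. EVX1 and EVX2, which lie beside the HOXA and HOXD clusters, were at 0, and the highest was GBX1 at 0.178 ± 0.0636 FPKM. Of 7 further TALE-class genes, 3 were detected, beside 61.5% of genes with a symbol: IRX1 had 29.6 ± 2.76, above every TALE cofactor, MKX, a tendon regulator, had 8.31 ± 0.298, and IRX5 had 4.65 ± 0.239. IRX2, IRX3 and IRX4 had means between 0.0194 and 0.0391 FPKM and IRX6 was at 0.

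**Figure D5:**
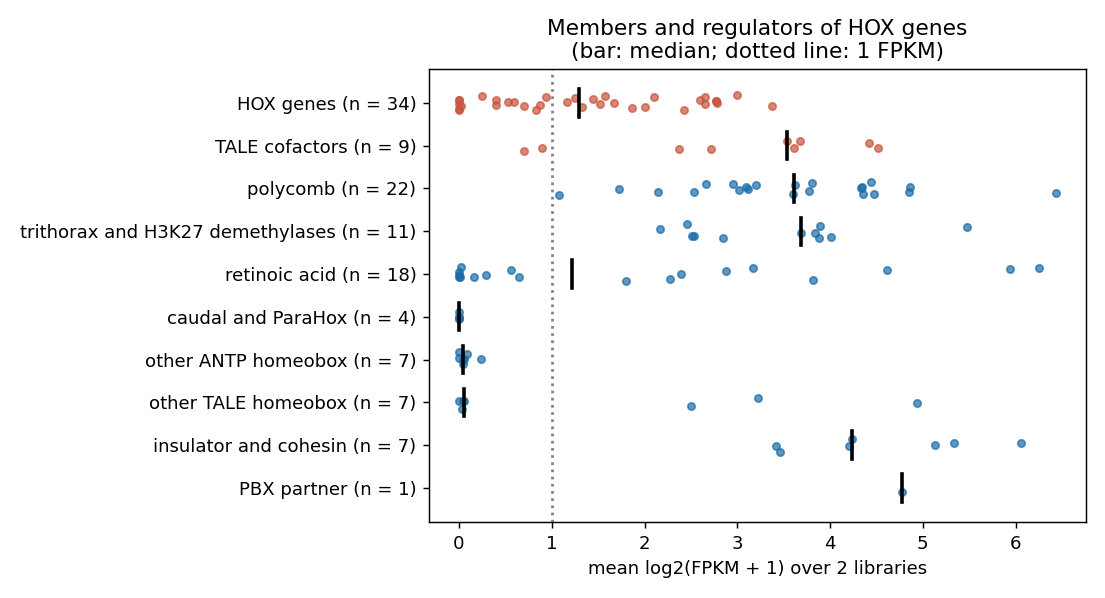
Mean log2(FPKM + 1) over 2 libraries of each HOX gene, TALE cofactor and member of the regulator lists, with a bar at the median of each list and a dotted line at 1 FPKM. The HOX median (1.29) lies below those of the TALE cofactors (3.53), Polycomb (3.61) and trithorax (3.69) genes. The 4 measured caudal and ParaHox genes are all at 0.

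The genes flanking the clusters, taken as the nearest 3 protein-coding RefSeq genes on each side, were in most cases more abundant than the HOX genes. Of 24 such genes 18 were measured and 13 detected (beside 61.5% of genes with a symbol), with a median of 14.1 FPKM, where the median HOX gene had 1.45. At HOXC they reached from SMUG1, a DNA repair gene (6.01 ± 0.151), to HNRNPA1, an RNA-binding protein gene (115 ± 1.37). At HOXA the highest was TAX1BP1 (39.0 ± 0.627), and at HOXD it was NFE2L2 (42.4 ± 0.733), the regulator of antioxidant genes, while the nearest gene on one side of each, EVX1 and EVX2, was at 0. At HOXB they were mixed, from CALCOCO2 (27.1 ± 0.712) to TTLL6, listed at 0.

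The libraries did not separate at any member. An exact two-sided binomial test of the recovered reads, adjusted by Benjamini-Hochberg over 16327 genes, called 1.11% of them and 0 of the 38 members with reads. At an unadjusted p under 0.05, 3 members passed (7.89%, beside 10.2% of all genes): HOXD10, HOXA11 and HOXC6. HOXD10 had the smallest p in this exact test, 0.00598, with an adjusted p of 0.188. Its 28 and 49 reads made it 1.91-fold higher in replicate 2. Members were higher in replicate 1 in 19 cases and in replicate 2 in the other 19. Among the 19 HOX genes averaging at least 1 FPKM the libraries differed by a median of 1.06-fold and at most 1.39-fold (HOXA11), and among the 7 such TALE genes by at most 1.11-fold (PBX4).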

How the data were processed

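RNA-seq of 2 libraries of 1 clone was analysed. Libraries were made from total RNA with a NEBNext Ultra kit, per the labels' protocols. TopHat2 2.0.12, HTSeq 0.6.1 and the build Sscrofa11.1 are named in the submitters' processing notes. The strand setting and annotation release were not given in the sources used here. Per gene and library, the authors deposited unpooled FPKM values. By its usual settings HTSeq drops reads shared by overlapping genes, and without a stated strand setting antisense reads cannot be told apart. Members that overlap another RefSeq gene are thus uncertain. The identifiers are those of Ensembl, whose gene models can differ from RefSeq's, and overlaps among the counted models were not examined. Members without a RefSeq overlap are therefore not shown to be free of this problem.

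Library totals and gene lengths were recovered from the steps of the values, as the shortest length from 50 to 30000 bp giving whole reads in both libraries within 1.2 times the rounding. Whole reads came out for 16327 of 16327 genes above 0, and lengths equalled RefSeq in 11 of 13 mitochondrial genes. They summed to 90.8% of the totals, so reads can be too low, and intervals from them cover counting error alone. Recovery and test were tested on simulated data.

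Symbols came from a gene name table matching 14857 of 25880 identifiers. Levels were summarised as FPKM and as log2(FPKM + 1), with detection at 1 FPKM in both libraries. With 1 group, the only test compared the libraries (scipy 1.17.1, pandas 2.3.3, Python 3.11.15). Members, lists and the rule for naming genes (every member, the 3 highest and the undetected genes of each list, the extremes among flanking genes) were chosen with earlier results of these data known. EZH2, EZH1, CBX2, CBX8, KMT2A and CTCF were named for their role after their values were seen, and TAGLN and DES for their lower levels. Some genes of these families are counted in totals but not reported here by name. No reference sequence was used here. Alternatives changed the detection level, pseudocount, scaling, summary, overlap filter and totals, and left out each library.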

Additional observations from a re-analysis of the deposited data

How the results depend on the processing

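No paired analysis was possible because the design has 1 group. All 50 recomputed counts of detected genes stayed within 1.5 times the reported count. HOX genes numbered 24 and 13 at 0.5 and 2 FPKM, 25 after scaling each library to a sum of 1000000, and 20 and 19 without replicate 1 or 2, where the added gene is HOXD10. TALE genes numbered between 7 and 9. Cluster medians on the log2 scale moved with the summary. With a pseudocount of 0.1 those of HOXA, HOXB, HOXC and HOXD were 0.92, 0.69, -0.48 and 0.52, and after scaling 2.55, 2.35, 1.42 and 2.23, in both cases in the reported order. The means over members were 1.41, 1.51, 1.11 and 1.45, which put HOXB first. Over members of 0.1 FPKM or more, the medians of HOXB, HOXC and HOXD were 2.65, 1.65 and 1.57, which put HOXA last. Without either replicate, HOXA ranged from 1.47 to 1.53, HOXB from 1.28 to 1.38, HOXC from 0.62 to 0.77 and HOXD from 1.13 to 1.38. HOXD stood marginally above HOXB without replicate 1. Members that overlap no other gene are fewer, and HOXB4 and HOXD4 are left out for want of a RefSeq entry. Over them, the medians of HOXA, HOXB, HOXC and HOXD were 1.25, 0.83, 0 and 1.27, with HOXD first. The sums of HOXA to HOXD were 3.32, 7.57, 1.15 and 12.8 FPKM, with HOXD first. Paralog groups 1 to 5, 6 to 9 and 10 to 13 held 11.5, 11.6 and 1.71 FPKM. The test between libraries called 182 genes, 187 with the recovered reads as totals and 220 among genes with 10 or more reads, and 0 members each time. Depth limits HOXB1 and HOXD11, each with under 20 reads per library. Genes at 0 have no recoverable length, so no upper limit is given for them.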
